A study of Mus musculus with 60 samples.

Results

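The Siglecs are cell surface receptors that bind sialic acid, the sugar at the tips of many glycans. The 7 genes described here are the listed Siglec rows of a count table of 35976 gene symbols: Siglech, Cd33, Siglecf, Cd22, Siglece, Siglec1 and Mag. They were chosen by name, with earlier results of these data known, and all 7 were found in the table. RNA-seq of rRNA-depleted total RNA was available for 60 frozen hippocampus samples. NLGF mice (AppNL-G-F) and wild-type (WT) mice were sampled at weeks 3, 8 and 24, with 5 females and 5 males per genotype and age. AppNL-G-F is a knock-in line in which the mouse App gene carries the Swedish, Beyreuther/Iberian and Arctic mutations of familial Alzheimer's disease under its own promoter, so no transgene is added, and WT mice carry the unmodified gene. The labels give neither the zygosity of the knock-in nor whether each sample is a different mouse. The p-values therefore reflect only how much these samples vary, and some of that may be technical.

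Most Siglecs of immune cells carry an inhibitory motif, the ITIM, in their intracellular tail. When the outer part meets sialic acid on neighbouring cells, the ITIM recruits phosphatases such as Ptpn6 (SHP-1), which damp activating signals. A smaller number of Siglecs lack that motif and pair with Tyrobp (DAP12), an adaptor with an activating motif, the ITAM, which is also the partner of the microglial receptor Trem2. Human CD33 is a risk gene of Alzheimer's disease, and mouse Cd33 is its counterpart by name and position although the intracellular parts differ. Mag, the myelin-associated glycoprotein, is a Siglec of another kind: oligodendrocytes place it on the innermost wrap of myelin, where it binds gangliosides of the axon.

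All coordinates are those of mm10 in GENCODE vM21. Of the 7 genes, 6 lie on chromosome 7 and Siglec1 lies on chromosome 2 (131069220 to 131086765, minus strand). Siglecf (43351341 to 43359531, plus strand), Cd33 (43524216 to 43544428, minus strand) and Siglece (43651070 to 43660161, minus strand) form a cluster, with 164684 bp between Siglecf and Cd33 and 106641 bp between Cd33 and Siglece. Cd22 (30865402 to 30880342, minus strand) and Mag (30899176 to 30914873, minus strand) are neighbours with 18833 bp between them. Siglech (55768178 to 55778925, plus strand) stands apart, 12108016 bp from Siglece. An antisense gene model, Gm29439, overlaps Cd22, and because the strand setting of the counting is not given, reads of that model cannot be told apart from Cd22 reads.

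The upstream sequences shown are those of Siglecf, Cd33 and Siglech, 3 of the 4 genes that were called higher in NLGF hippocampus at week 24. They are the 250 bases before the transcription start in RefSeq (GRCm38.p6), written in the direction of the gene. The capitals in Siglecf (chr7:43351091-43351340, plus strand) and Cd33 (chr7:43533172-43533421, minus strand) mark the longest run of bases that the promoters share. The capitals in Siglech (chr7:55767934-55768183, plus strand) mark GGAAGT, the core letters of ETS-family motifs, read on the opposite strand. Cd22, the other gene called higher, is not shown, and GGAAGT was not found in its promoter.
Siglecf: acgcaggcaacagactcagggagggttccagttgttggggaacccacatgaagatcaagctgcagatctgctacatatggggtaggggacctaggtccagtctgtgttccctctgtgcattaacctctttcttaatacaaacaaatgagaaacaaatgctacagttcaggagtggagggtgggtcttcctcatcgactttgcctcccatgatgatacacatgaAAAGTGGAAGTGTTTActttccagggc
Cd33: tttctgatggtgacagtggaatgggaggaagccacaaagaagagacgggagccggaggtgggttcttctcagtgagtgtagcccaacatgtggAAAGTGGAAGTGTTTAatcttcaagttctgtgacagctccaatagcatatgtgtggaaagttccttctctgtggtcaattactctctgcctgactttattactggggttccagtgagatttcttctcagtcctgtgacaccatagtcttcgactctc
Siglech: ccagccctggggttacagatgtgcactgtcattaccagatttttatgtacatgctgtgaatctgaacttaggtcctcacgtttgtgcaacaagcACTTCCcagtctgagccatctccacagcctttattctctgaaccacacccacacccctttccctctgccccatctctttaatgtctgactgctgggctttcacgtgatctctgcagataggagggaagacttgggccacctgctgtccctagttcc
The shared run of 16 bases starts 27 bases before the start of Siglecf and 157 bases before the start of Cd33, and 2 of 32851 RefSeq promoters of the same length hold it. These promoters, taken from 250 bases before to 50 bases after the start, aligned over 132 columns with 68.2% identical bases. Their alignment score was 94, whereas the next best score among the 15 pairs of family promoters was 28 (Cd33 with Siglech). RefSeq places the Cd33 start inside the longer GENCODE model of the gene.

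Of the 7 genes, 6 had a promoter entry of this length, and Siglec1 was not matched. Mag had 3 entries, and only the first of them was searched and aligned. GGAAGT was searched on both strands and is present in Siglecf, Cd33 and Siglech and in 23.8% of all promoters. It was not found in Cd22, which was also called higher at week 24, or in Siglece or Mag. The longer GAGGAAGT, the usual letters of the PU.1 site, is in 3.20% of all promoters and in none of the 6, and it contains the shorter motif. Neither TGANTCA (AP-1, 7.81% of promoters) nor the interferon element (3.44%) was found in the 6. ACAAAG (SOX, 18.7%) was found in Cd33 and Mag, and TTGCNNAA (C/EBP, 10.8%) in Siglech. These matches describe letters in a window and are not binding sites.

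Total counts per library lay between 17786578 and 73423252 with a median of 26097235. In the NLGF week 3 set, 7 libraries held 54026870 to 73423252 counts and stand apart from the other 53 libraries, which held 17786578 to 35162084 counts. Tests of genotype that use week 3 are therefore given with and without these 7, while the levels of NLGF libraries at week 3 include them. The sex label of 1 week 3 library (NLGF W3 male 2) conflicts with its sex-linked transcripts, and the age field of NLGF W8 female 1 says 3 weeks while its title says week 8. Mag in that library was 124 CPM, the lowest of the NLGF week 8 set and below all 20 libraries of week 3. App, the knocked-in gene, had a mean of 1621 CPM (SD 101) in NLGF libraries and 1741 CPM (SD 61.1) in WT libraries at week 24.

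Levels are given as CPM, counts scaled to the size of each library after TMM adjustment over all of them. Per kilobase of exon, Mag was the most abundant of the family in every set, at 35.4 ± 8.27 CPM per kb in NLGF and 33.8 ± 4.95 CPM per kb in WT at week 24 (SD, n = 10 each). Siglech followed at 3.00 ± 0.324 and 1.90 ± 0.293 CPM per kb in NLGF and WT, and neither Mag nor Siglech overlapped its neighbour in rank in any set. Cd33 came next, at 0.734 ± 0.104 CPM per kb in NLGF and 0.557 ± 0.0592 CPM per kb in WT, and its range overlapped that of the gene below it in every set. The lengths are those of all GENCODE exons of a gene merged: 7771 bp for Cd33, 2790 bp for Siglecf and 1849 bp for Siglece. The order depends on these lengths, and the annotation used for counting is not given. In WT the order after Cd33 was Siglece, Siglecf, Siglec1 and Cd22 at each age. In NLGF it was the same at weeks 3 and 8, whereas at week 24 Siglecf (0.538 ± 0.113 CPM per kb) stood above Siglece (0.337 ± 0.117) and Cd22 (0.145 ± 0.0550) above Siglec1 (0.0984 ± 0.0447), with overlapping ranges in both cases. The plot of levels by library shows all 7 genes on their own scale.

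**Figure D1:**
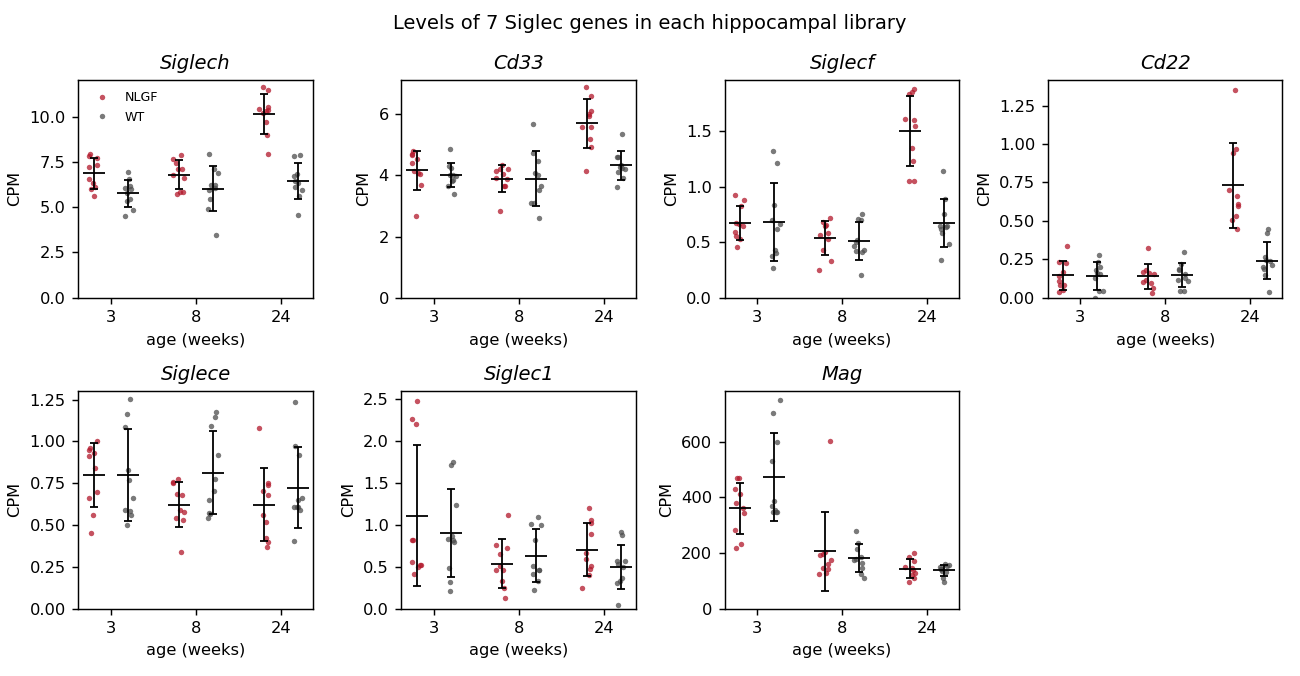
Level of each Siglec gene in CPM (y axis, from 0) in each of 60 hippocampal libraries by age in weeks (x axis); NLGF in red, WT in grey, bars show mean and SD, n = 10 per set. At week 24 NLGF libraries lie above WT libraries for Siglech, and mostly for Cd22, Siglecf and Cd33, while the mean of Mag is highest at week 3 in both genotypes. For Mag, NLGF W8 female 5, at 602 CPM, lies above all NLGF libraries of week 3.

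The genotypes were compared at week 24 to ask which receptors differ in the oldest animals. Siglech, Siglecf, Cd22 and Cd33 rose in NLGF hippocampus, and Siglec1, Siglece and Mag did not pass the test. Cd22 entered the test only through its NLGF libraries, so its call is not counted here. Of the other 6 genes, 3 were called higher by edgeR's quasi-likelihood test at an adjusted p under 0.05, against 0.8% of the 16508 genes tested. The median log2 fold change over these 6 genes was 0.45 and that over all genes tested was -0.00063. Because the genes were chosen with earlier results of these data known, neither contrast with all genes is a test of the family. In whole tissue, fewer cells of a type and less RNA per cell cannot be told apart, and the same holds for more of either.

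Siglech is a receptor of microglia and of plasmacytoid dendritic cells that lacks an ITIM and signals through Tyrobp. At week 24 it was 7.93 CPM at its lowest, 10.3 CPM at the median and 11.6 CPM at its highest in NLGF libraries, against 4.57, 6.39 and 7.87 CPM in WT libraries. All 10 NLGF libraries lay above all 10 WT libraries. Such a gap between the genotypes, with NLGF higher, was seen in 0.315% of the genes tested, and Siglech was the only one of the 7 to show it. Its log2 fold change was 0.66 ± 0.0858 (SE, edgeR adjusted p = 5.47e-05), or 1.58-fold.

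Siglecf is an inhibitory receptor known from eosinophils and alveolar macrophages. It had 1.05 CPM at its lowest, 1.57 CPM at the median and 1.88 CPM at its highest in NLGF libraries of week 24, against 0.341, 0.641 and 1.14 CPM in WT libraries. Of the 10 NLGF libraries 8 lay above every WT library, and 9 of the 10 WT libraries lay below every NLGF library. The log2 fold change was 1.15 ± 0.175 (SE, edgeR adjusted p = 0.000439), or 2.22-fold.

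Cd22 is the inhibitory co-receptor of B cells, and in mice it has also been described on microglia of old brains. It was among the scarcest of the 7, with 13 to 34 counts in NLGF libraries and 1 to 14 counts in WT libraries at week 24. Its level was 0.444 CPM at its lowest, 0.637 CPM at the median and 1.35 CPM at its highest in NLGF, against 0.0399, 0.223 and 0.445 CPM in WT. Of the 10 NLGF libraries 9 lay above all WT libraries, so the groups overlapped only at 1 NLGF and 1 WT library. The log2 fold change was 1.56 ± 0.265 (SE, edgeR adjusted p = 0.0018), or 2.96-fold. At weeks 3 and 8 Cd22 did not pass the filter on low counts and was not tested. It passed at week 24 through its NLGF libraries, so a gene with its pattern could enter the test only by being high there.

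Cd33, in humans an inhibitory receptor of myeloid cells, had the smallest change of the 4. It stood at 4.16 CPM at its lowest, 5.78 CPM at the median and 6.91 CPM at its highest in NLGF libraries of week 24, against 3.62, 4.26 and 5.34 CPM in WT libraries. The groups overlapped, with 7 of 10 NLGF libraries above all WT libraries. The log2 fold change was 0.40 ± 0.0892 (SE, edgeR adjusted p = 0.0249), or 1.32-fold. This call was lost, at adjusted p from 0.0525 to 0.0599, when any of 5 libraries was left out: NLGF W24 females 3 and 4, NLGF W24 males 4 and 5, or WT W24 female 2. The value stayed between 0.37 and 0.45 over all 20 such fits.

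The remaining 3 genes were not called at week 24. Siglece, an inhibitory receptor of neutrophils and macrophages, had a log2 fold change of -0.20 ± 0.213 (SE, edgeR adjusted p = 0.814), with 0.367 to 1.08 CPM in NLGF libraries and 0.403 to 1.24 CPM in WT libraries. Siglec1 (sialoadhesin), an adhesion receptor of tissue macrophages without a signalling motif of its own, had 0.49 ± 0.297 (adjusted p = 0.657), with 0.245 to 1.197 CPM in NLGF libraries and 0.0442 to 0.908 CPM in WT libraries. Mag had 0.07 ± 0.124 (adjusted p = 0.901), with 94.2 to 199 CPM in NLGF libraries and 96.9 to 162 CPM in WT libraries. In these 3 genes the groups overlapped over most of their range.

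The authors' deposited table of genes differing between the genotypes at week 24 also holds Siglech, Siglecf, Cd22 and Cd33 and none of the other 3. In the authors' deposited table their log2 fold changes are 0.64, 1.02, 1.25 and 0.34, with adjusted p of 1.61e-09, 2.7e-06, 0.000127 and 0.0103. None of the 7 genes appears there for weeks 3 or 8. That table rests on the same libraries and is no separate evidence.

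**Figure D2:**
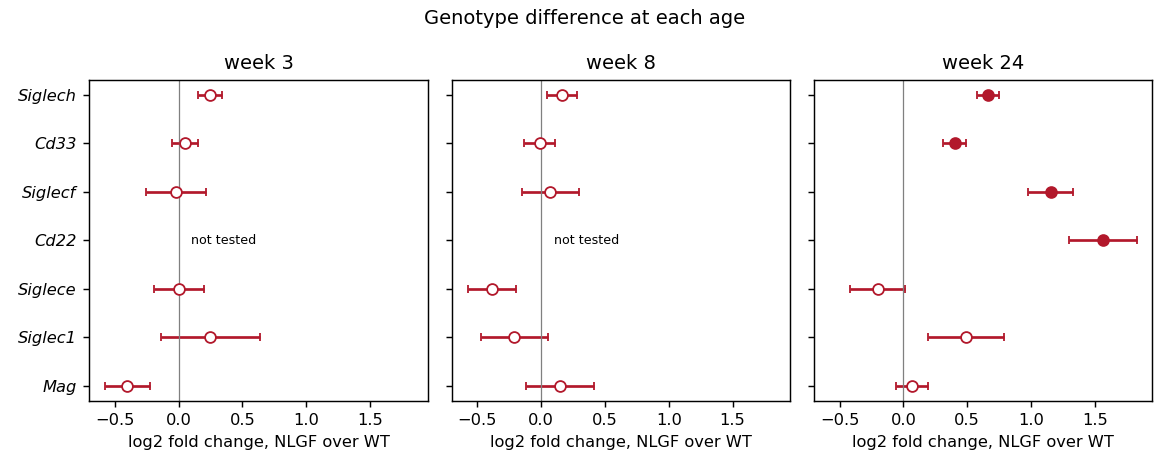
Log2 fold change of NLGF over WT (x axis) for each Siglec gene (y axis) at weeks 3, 8 and 24; bars show 1 SE, filled points passed an adjusted p of 0.05 in edgeR and open points did not. The 4 filled points, all at week 24, lie between 0.40 for Cd33 and 1.56 for Cd22.

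The comparisons at weeks 3 and 8 ask whether the receptors differ before that age. At week 3 edgeR called 0 of 6 family members tested, against 3.78% of all genes tested, with 2 members at an unadjusted p under 0.05, against 22% of genes. DESeq2 also called 0 members and voom 1, and voom called 18.8% of all genes. Siglech was 5.60 CPM at its lowest, 6.89 CPM at the median and 7.95 CPM at its highest in NLGF, against 4.51, 5.89 and 6.93 CPM in WT, and 5 NLGF libraries lay above all WT libraries. Its log2 fold change was 0.24 ± 0.0929 (SE, edgeR adjusted p = 0.126), and 0.16 without the 7 deep libraries (adjusted p = 0.652). Mag was 216 to 471 CPM in NLGF libraries and 347 to 749 CPM in WT libraries, with 4 NLGF libraries below all WT libraries and a log2 fold change of -0.40 ± 0.179 (adjusted p = 0.195). Mag was the member called by voom (-0.51, adjusted p = 0.0346). It averaged 331 ± 87.1 CPM in the 7 deep NLGF libraries and 428 ± 72.0 CPM in the 3 others, and without the 7 its log2 fold change was -0.10 (adjusted p = 0.905).

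Cd33, Siglecf, Siglec1 and Siglece had log2 fold changes between -0.02 and 0.25 at week 3. Their adjusted p in edgeR was between 0.750 and 0.992. Siglec1 varied widely: 3 NLGF libraries reached 2.20 to 2.47 CPM, while the other 7 had 0.413 to 0.820 CPM, and WT libraries ranged from 0.212 to 1.75 CPM. Without the 7 deep libraries Cd33 moved to -0.23 and was not called (adjusted p = 0.593), so its direction at week 3 depends on them. Siglece became -0.21 (adjusted p = 0.849), Siglecf -0.09 (adjusted p = 0.949) and Siglec1 0.13 (adjusted p = 0.939). Without those libraries, or with a term for them, edgeR called 0 members and 0 genes in all.

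At week 8 edgeR called 0 of 6 members and 0% of the 16494 genes tested. No member had an unadjusted p under 0.05, against 7.83% of genes, and DESeq2 and voom called 0 members. Siglece was the member with the smallest p, with 0.337, 0.635 and 0.775 CPM as the lowest, median and highest value in NLGF and 0.543, 0.739 and 1.18 CPM in WT. Its log2 fold change was -0.38 ± 0.189 (SE, edgeR adjusted p = 0.635), and 3 NLGF libraries lay below all WT libraries. The other 5 members tested had log2 fold changes between -0.21 and 0.16. Cd22, untested, averaged 0.139 ± 0.0805 CPM in NLGF libraries and 0.147 ± 0.0785 CPM in WT libraries (SD, n = 10 each).

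Whether the genotype effect itself differed between ages was tested in 1 fit of all libraries. The effect at week 24 minus that at week 8 was a log2 difference of 1.62 ± 0.491 for Cd22, 1.08 ± 0.301 for Siglecf, 0.50 ± 0.138 for Siglech and 0.41 ± 0.146 for Cd33 (SE). None was called: edgeR's adjusted p was 0.279, 0.149, 0.143 and 0.686, against 0.31% of 17752 genes called. At an unadjusted p under 0.05 were 3 of the 6 members other than Cd22, against 3.85% of genes, and DESeq2 called 0. Siglech was called (0.57, adjusted p = 0.0136) when WT W8 male 3, its lowest WT library of week 8, was left out.

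For week 24 minus week 3, Siglecf was called, with a log2 difference of 1.18 ± 0.289 (SE, edgeR adjusted p = 0.0231). In this comparison 1.15% of the genes tested were called, and the other 6 members were not. At an unadjusted p under 0.05 were 3 of the 6 members other than Cd22, against 13.5% of genes. Cd22 passed the filter in the fit of all libraries through those of NLGF at week 24. The value was 1.25 without the 7 deep week 3 libraries (adjusted p = 0.289, 15 genes called in all) and 1.14 with the replicate number as a block (adjusted p = 0.0626). It was 1.07 without WT W3 female 5 (adjusted p = 0.0525). Between weeks 3 and 8 edgeR and DESeq2 called 0 members, with 0 members and 7.26% of genes at an unadjusted p under 0.05 and 0.18% of genes called. Without the deep libraries edgeR again called 0 members there, and Cd33 was 0.21 in place of -0.06.

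Within NLGF hippocampus, the same 4 receptors were higher at week 24 than at week 8. Cd22 had a log2 fold change of 2.35 ± 0.282, Siglecf 1.47 ± 0.170, Siglech 0.59 ± 0.0790 and Cd33 0.56 ± 0.0931 (SE), with edgeR adjusted p of 1.36e-05, 7.85e-06, 6.46e-05 and 0.000868. Cd22, with 13 to 34 counts in week 24 libraries and 1 to 10 counts in week 8 libraries, was again tested only because of its level at week 24. Of the other 6 members 3 were called higher, against 1.83% of 16848 genes. Every NLGF library of week 24 lay above every NLGF library of week 8 for Cd22, Siglecf and Siglech, as it did for 0.51% of the genes tested, and for Cd33 this held for 9 of 10. The comparison shares the week 24 libraries with the genotype comparison. In WT hippocampus the log2 fold changes from week 8 to week 24 were 0.39 for Siglecf, 0.14 for Cd33 and 0.09 for Siglech. Cd22 was not tested there, with a mean of 0.240 CPM (SD 0.120) in week 24 and 0.147 CPM (SD 0.0785) in week 8 libraries.

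The 4 receptors did not differ detectably between the sexes in their genotype effect. At week 24 the effect in males minus that in females was 0.08 ± 0.174 for Siglech, 0.0031 ± 0.488 for Siglecf, -0.11 ± 0.181 for Cd33 and -0.49 ± 0.547 for Cd22 (SE, edgeR adjusted p = 1 for each). At each age 0 members and 0% of all genes were called, and DESeq2 called 0 members. Without the deep libraries NLGF W3 male 1, at 2.20 CPM of Siglec1, was the only NLGF male left at week 3. The difference of Siglec1 was then 1.87, in place of 0.26 ± 0.796 with all libraries (SE, edgeR adjusted p = 0.912). At an unadjusted p under 0.05 there were 0 members at each age with all libraries, against 11.9% of genes at week 3, 6.14% at week 8 and 2.94% at week 24. Siglech averaged 10.5 ± 0.654 CPM in NLGF females and 6.82 ± 0.962 CPM in WT females. It averaged 9.87 ± 1.43 CPM in NLGF males and 6.04 ± 0.953 CPM in WT males (SD, n = 5 each). With 5 libraries a side, 1 member (Siglech) was called among females and 0 among males, where 44 and 37 genes were called in all.

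The RNA levels of pairs of receptors were compared as a log2 ratio within each library, and no balance of signals was measured. Trem2, the activating microglial receptor that pairs with Tyrobp, exceeded Cd33 by 1.56 ± 0.204 in NLGF libraries and by 0.78 ± 0.161 in WT libraries at week 24 (SD, n = 10 each). All 10 NLGF libraries, at 1.36 to 2.05, lay above all 10 WT libraries, at 0.53 to 0.95. The difference of 0.78 had a p of 2e-05 in a 2-sided permutation test, the smallest that 100000 resamples can give, and an adjusted p of 0.00018 over 9 ratio tests. In these same libraries the log2 fold changes of Trem2 and Cd33 were 1.18 and 0.40, so the difference in ratio is not separate evidence. At weeks 3 and 8 the difference was 0.07 and 0.06 (permutation test, adjusted p = 0.707 for each). Without the 7 deep libraries, which leaves 3 NLGF libraries, the difference at week 3 was 0.48 (permutation test, adjusted p = 0.136), so its size at that age rests on them.

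Pairs within the family were compared in the same way. The log2 ratio of Siglecf to Siglech was -2.70 ± 0.318 in NLGF and -3.11 ± 0.495 in WT at week 24, a difference of 0.41 (permutation test, p = 0.0398, adjusted p = 0.119). The log2 ratio of Cd33 to Siglech was -0.83 ± 0.191 in NLGF and -0.55 ± 0.327 in WT, a difference of -0.28 (p = 0.0344, adjusted p = 0.119, permutation test). Neither passed after adjustment, and both sets of libraries overlapped. Left without WT W24 male 2, the first gave an adjusted p of 0.0354, and left without WT W24 female 2, the second gave 0.0233. At week 3 the difference was -0.16 for Siglecf to Siglech and -0.21 for Cd33 to Siglech (permutation test, adjusted p = 0.644 and 0.173), and without the deep libraries -0.13 and -0.40 (adjusted p = 0.769 and 0.118). The ratio plot shows these values for every library.

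**Figure D3:**
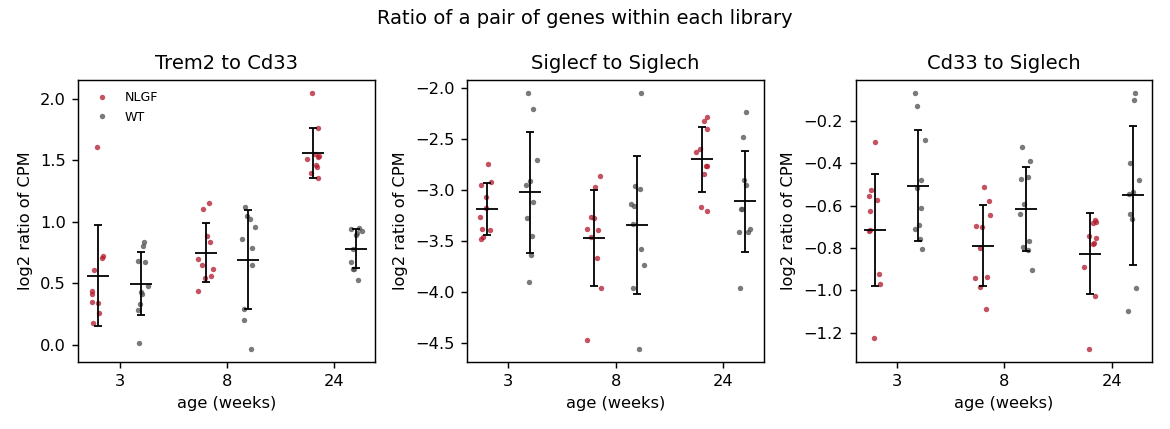
Log2 ratio of the CPM of a pair of genes within each library (y axis) by age in weeks (x axis); NLGF in red, WT in grey, bars show mean and SD, n = 10 per set. At week 24 the ratio of Trem2 to Cd33 is 1.36 to 2.05 in NLGF libraries and 0.53 to 0.95 in WT libraries, while the other ratios overlap.

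The signalling partners of the family were followed with fixed lists, which were chosen with earlier results of these data known. Of the ITAM adaptors and kinases, 3 of 6 tested were higher in NLGF at week 24 and 0 lower. Over all genes tested, 0.8% were called higher and 0.0787% lower. Tyrobp, the adaptor of Siglech and Trem2, had 15.4 to 20.5 CPM in NLGF libraries and 7.43 to 10.4 CPM in WT libraries, so the sets did not overlap. Its log2 fold change was 1.16 ± 0.0701 (SE, edgeR adjusted p = 5.88e-10). Fcer1g, the related adaptor of Fc receptors, had 0.69 (adjusted p = 6.91e-05), and Lyn, a kinase that phosphorylates ITIMs and ITAMs, had 0.41 (adjusted p = 0.00245). Among the ITIM phosphatases 2 of 6 were higher and 0 lower, against the same shares of all genes. Ptpn6 had 4.68 to 6.05 CPM in NLGF libraries and 2.54 to 4.22 CPM in WT libraries, with a log2 fold change of 0.74 ± 0.0803 (edgeR adjusted p = 5.28e-06), and Inpp5d (SHIP1) had 0.34 (adjusted p = 0.000129). An antisense gene model also overlaps Ptpn6. None of Trem2, Tyrobp and Ptpn6 was called at week 3, with log2 fold changes of 0.09, -0.01 and 0.15, or at week 8, with 0.04, 0.04 and -0.20. Without the deep libraries the values at week 3 were 0.31, 0.09 and 0.57, again not called (edgeR adjusted p = 0.426, 0.813 and 0.351).

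The genes that make, attach and remove the sialic acid ligands did not pass the test at week 24, where 0.878% of all genes tested were called. Of the sialic acid synthesis genes 0 of 9 tested were called, with a median log2 fold change of 0.05. The smallest p belonged to Cmas, which activates sialic acid for transfer (-0.10, edgeR adjusted p = 0.556), followed by Nans (0.08). Of the sialyltransferases, the enzymes that attach it, 0 of 19 were called (median -0.0048). The smallest p among them belonged to St6galnac6 (-0.08, adjusted p = 0.587) and St8sia1 (-0.10). Of the sialidases, which remove it, 0 of 4 were called, with lysosomal Neu1 at 0.10 (adjusted p = 0.572) and Neu4 at -0.09. Of the genes for proteins and gangliosides that carry the ligands 0 of 7 were called, Clu (0.09) and Cd24a (0.24) having the smallest p. Of the Mag receptors and partners, among them the Nogo receptor complex, 0 of 9 were called, with Ngfr at -0.30 (adjusted p = 0.619) and Lingo1 at -0.10. A further pair of Siglecs, Siglecg and Siglec15, stood at no more than 5 and 13 counts in any library and were not tested.

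Markers of the cells that could carry these receptors were measured beside them. The summed level of 11 homeostatic microglia markers, none of them at 0, was 378 to 466 CPM in NLGF libraries and 325 to 374 CPM in WT libraries at week 24, so the sets did not overlap. Of these markers 7 of 11 rose (median log2 fold change 0.35), among them Cx3cr1 (0.36), Olfml3 (0.53) and Fcrls (0.49). Of 12 plaque-associated microglia markers 7 rose (median 0.59), among them Itgax (3.89), Trem2 (1.18), Cst7 (4.51) and Clec7a (3.37). Over all genes tested, 0.8% were called higher. Of the 12 markers 9 passed the filter on low counts at weeks 3 and 8. Itgax, Cst7 and Clec7a averaged 0.313, 0.302 and 0.352 CPM in WT libraries at week 24. Like Cd22, they may have entered the test only through their NLGF libraries, so their calls carry no weight of their own. The 7 of 12 and the median of 0.59 include them and cannot be weighed against the share of all genes. When the summed homeostatic markers were added to the fit as a term, no member was called, and 2 of 16508 genes were called in all. The log2 fold changes became 0.18 ± 0.199 for Siglech, 0.64 ± 0.432 for Siglecf, 2.11 ± 0.657 for Cd22 and -0.12 ± 0.209 for Cd33. Because the sums of the genotypes did not overlap, that term and the genotype cannot be told apart.

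Markers of blood cells known for these receptors varied in level within each list. Among 7 B cell markers, Fcer2a averaged 1.37 CPM in NLGF libraries and 1.47 CPM in WT libraries at week 24, above Cd22 at 0.731 and 0.240 CPM. Pax5 averaged 0.371 and 0.381 CPM, below Cd22 in NLGF and above it in WT, whereas Ms4a1 averaged 0.0451 CPM in NLGF libraries and 0.0138 CPM in WT libraries, below Cd22 in both genotypes. Blk was 0 in all WT libraries and averaged 0.0301 CPM in NLGF libraries. The summed B cell list was 1.31 to 3.22 CPM in NLGF libraries and 1.504 to 2.78 CPM in WT libraries, and Fcer2a was the only marker tested (-0.11, edgeR adjusted p = 0.892). The 8 eosinophil, neutrophil and mast cell markers summed to 0.156 to 0.675 CPM in NLGF libraries and 0.133 to 0.659 CPM in WT libraries, none of them tested, and the eosinophil marker Epx averaged 0.168 and 0.149 CPM. Of the 7 plasmacytoid dendritic cell markers 3 were tested and 0 called, with Irf7 (1.92 CPM in NLGF libraries, 1.49 CPM in WT libraries) at a log2 fold change of 0.38 (adjusted p = 0.594) and Pacsin1, which neurons also express, at -0.11. The list summed to 319 to 464 CPM in NLGF libraries and 368 to 512 CPM in WT libraries, of which Pacsin1 made up 392 and 423 CPM on average. Cox6a2 averaged 2.83 and 2.78 CPM. Ly6d and Klk1 of that list averaged 0.0110 and 0.0297 CPM in NLGF libraries and 0.0371 and 0.00485 CPM in WT libraries. The 4 T and NK cell markers in the table summed to at most 0.508 CPM in any NLGF and 0.354 CPM in any WT library. The 5 choroid plexus markers varied from 23.2 to 9917 CPM in NLGF libraries and from 16.5 to 5696 CPM in WT libraries, with 0 called. The 9 perivascular macrophage markers summed to 6.32 to 12.02 CPM in NLGF libraries and 6.41 to 13.9 CPM in WT libraries, with 0 of 5 called, Cd163 at -0.34 (adjusted p = 0.628) and F13a1 at -0.18. The part of any of these cells in the result was not tested.

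**Figure D4:**
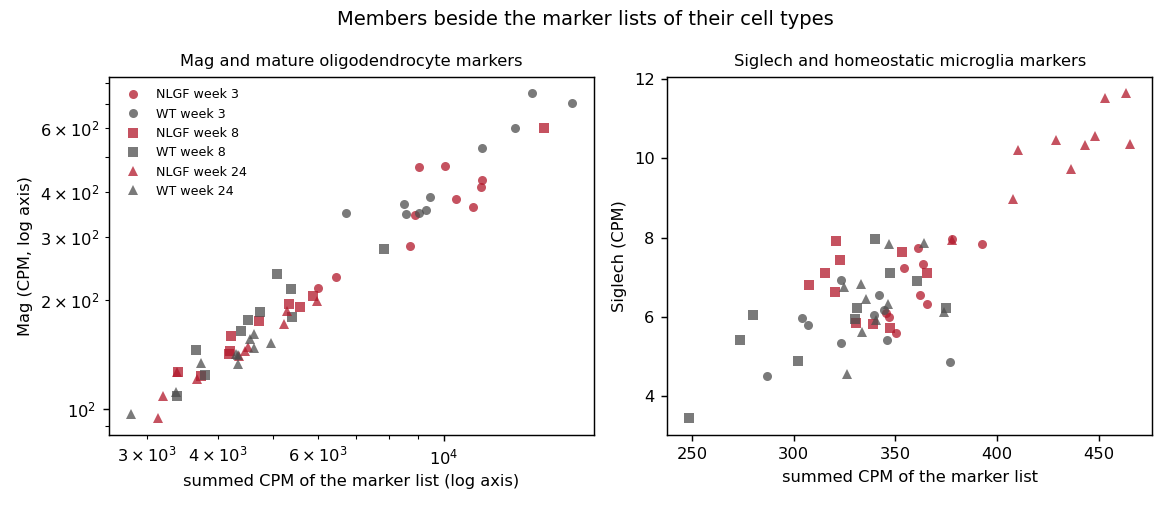
Left, Mag in CPM against the summed CPM of 11 mature oligodendrocyte markers, both on log axes; right, Siglech in CPM against the summed CPM of 11 homeostatic microglia markers. Each point is 1 of 60 libraries, with NLGF in red, WT in grey and the shape giving the week. Mag follows its list across libraries, and NLGF libraries of week 24 lie at the upper right for Siglech.

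The course with age in WT hippocampus was tested to describe the family without the knock-in. Mag fell with age, and no other member tested was called. In WT libraries Mag was 109 CPM at its lowest, 178 CPM at the median and 278 CPM at its highest at week 8, against 347, 378 and 749 CPM at week 3. All 10 libraries of week 8 lay below all 10 of week 3, as they did for 0.445% of the genes tested. The log2 fold change was -1.37 ± 0.162 (SE, edgeR adjusted p = 8.27e-07), and 1 of 6 members was called where 7.14% of 16844 genes were. At week 24 the values were 96.9, 141 and 162 CPM, again all below week 3 (1.94% of genes), with -1.78 ± 0.164 (adjusted p = 2.38e-09) and 1 of 6 members called where 21.9% of genes were. From week 8 to week 24 the log2 fold change of Mag was -0.40 ± 0.160 (adjusted p = 0.331). There edgeR and DESeq2 called 0 members, with 1 member and 11.5% of genes at an unadjusted p under 0.05 and 0.279% of genes called.

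Other oligodendrocyte genes fell together with Mag. Of 11 mature oligodendrocyte markers 10 were lower in WT at week 8 than at week 3 (median log2 fold change -1.10) and 9 at week 24 (median -1.34), against a median of 0.01 over all genes in both. Over all genes tested, 4.51% were called lower at week 8 and 11.3% at week 24, each against week 3. The summed list was 6734 to 16819.7 CPM at week 3, 3381 to 7841 CPM at week 8 and 2807 to 4955 CPM at week 24. Of 5 precursor markers 4 were lower at week 8 and 5 at week 24. Of 5 blood markers 5 were lower at both ages (median -1.54 and -1.40), and their part in the fall of Mag was not tested. These are shares of a library and not amounts per animal. In NLGF libraries Mag had a median of 372 CPM at week 3, 168 CPM at week 8 and 142 CPM at week 24.

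One NLGF library of week 8, female 5, had 602 CPM of Mag where the next highest had 205 CPM. Its mature oligodendrocyte markers summed to 15043 CPM, the highest of that set. With it the log2 fold change of Mag between NLGF and WT at week 8 was 0.15 ± 0.264 (SE, edgeR adjusted p = 0.889), and without it -0.17 ± 0.147 (adjusted p = 0.751). The log2 fold change within NLGF from week 8 to week 24 was -0.48 ± 0.249 with it (adjusted p = 0.372) and -0.17 ± 0.138 without it (adjusted p = 0.675). With the summed oligodendrocyte markers as a term in the fit, the genotype difference of Mag was -0.20 ± 0.0844 at week 3, -0.09 ± 0.0598 at week 8 and 0.01 ± 0.0386 at week 24, not called at any age. Cnp and Mbp of that list ran with Mag at a Pearson r of 0.995 and 0.978 over 53 libraries. Such a fit could therefore show only a difference of Mag that these markers do not share.

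Siglec1 came closest to the threshold among the others in WT, with a log2 fold change of -0.89 ± 0.338 from week 3 to week 24 (SE, edgeR adjusted p = 0.0565). It was 0.0442 to 0.908 CPM at week 24 and 0.212 to 1.75 CPM at week 3, with overlapping sets. DESeq2 called it (-0.91, adjusted p = 0.0376), as it did 24.3% of all genes, and in edgeR it was called when any of 4 libraries was left out: WT W24 female 1, WT W24 male 4, WT W3 female 1 or WT W3 female 3 (adjusted p from 0.0206 to 0.0414). Of the perivascular macrophage markers, 4 of 6 tested were lower in WT at week 24 than at week 3 (median -0.81), namely Mrc1 (-1.15), Cbr2 (-1.19), Lyve1 (-0.87) and Cd163 (-0.75). In the same edgeR comparison 11.3% of all genes tested were called lower. Cd33, Siglech, Siglecf and Siglece had log2 fold changes between -0.15 and 0.16 over that span.

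Genes whose level ran most like each receptor were listed by Pearson's r of log2(CPM + 0.5) over the 53 libraries other than the 7 deep ones, as a description, since libraries share genotype, age and depth. Mag ran with Cnp (r = 0.995, and 0.986 after the mean of each genotype, age and sex group was subtracted), Adamts4 (0.991), Mbp (0.978) and Gsn (0.975). Siglech ran with Ly86 (0.814, and 0.382 within groups), Cd180 (0.809), Trem2 (0.807) and B2m (0.804). Cd33 ran with Ly86 (0.736, and 0.389 within groups), Cd180 (0.702), C1qb (0.692) and Laptm5 (0.690).

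Siglecf ran with Cst7 (0.792, and 0.339 within groups), Mpeg1 (0.781), Ctss (0.773), Fcgr3 (0.755) and Itgax (0.753, and -0.0862 within groups). For Siglec1 the list was Il6st (0.696, and 0.573 within groups), Mmp2 (0.684), Rbms2 (0.656), Svep1 (0.644) and S1pr3 (0.636). For Siglece no gene exceeded 0.476 (Chrd), and Mon1b, Ddi2, Sema3g and Ephb4 followed at 0.450 to 0.467. Cd22 was below the 0.5 CPM required for this list. Among the receptors themselves, r was 0.732 for Cd22 with Siglecf, 0.703 for Cd22 with Siglech and 0.671 for Cd33 with Siglech. Within groups these were 0.238, 0.0173 and 0.365.

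The 6 receptors other than Mag summed to 19.4 ± 1.95 CPM in NLGF libraries and 12.9 ± 0.774 CPM in WT libraries at week 24 (SD, n = 10 each), with 16.2 to 22.2 CPM in NLGF libraries and 11.2 to 13.8 CPM in WT libraries. Siglech made up 52.3 ± 2.89% of their counts in NLGF and 49.7 ± 5.84% in WT, and Cd33 29.3 ± 2.45% in NLGF and 33.7 ± 3.96% in WT. Siglecf made up 7.73 ± 1.46% in NLGF and 5.24 ± 1.76% in WT, and Siglece 3.21 ± 1.09% in NLGF and 5.64 ± 1.93% in WT. The share of Cd22 was 3.80 ± 1.46% in NLGF and 1.89 ± 1.03% in WT. These shares move with one another by construction and were not tested.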

How the data were processed

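Per the submitters' processing notes, FastQC, STAR, edgeR, DESeq2 and mm10 were used; which counter, annotation, strand setting and rule for multi-mapping reads applied is not given in the sources used here. The deposited table holds raw counts per gene, and the authors' deposited test table holds log2 fold changes, p-values and a mean normalised signal, of which the signal was not used. The members and lists were chosen with earlier results of these data known. Counts were tested with edgeR 4.0.16 (R 4.3.3; quasi-likelihood, robust, TMM, filterByExpr at a minimum count of 10, Benjamini-Hochberg adjustment over all genes tested), with sex as a covariate. CPM are TMM-scaled over 60 libraries. Ratios used a pseudocount of 0.1 CPM and 100000 resamples (SciPy 1.17.1). DESeq2 1.42.0, voom (limma 3.58.1), other scalings, filters and terms, and each library left out were alternatives. Named were all 7 members, and per list up to 4 called genes or else 2 by smallest p; some blood cell markers were named after their values were seen. The scripts were tested on simulated data. Some genes that the naming rule selects are not reported here.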

Additional observations from a re-analysis of the deposited data

Results flagged for a closer look

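Among 42 sets of 10 libraries, 4 held a library far from the others, where chance marks about 1 in 20 sets. Cd33 was 2.66 CPM in NLGF W3 male 1, against 3.70 CPM in the next library. Cd33 was 2.85 CPM in NLGF W8 female 4, against 3.66 CPM in the next. Cd22 was 0.323 CPM in NLGF W8 male 2, against 0.180 CPM in the next. Mag was 601.8 CPM in NLGF W8 female 5, against 205.4 CPM in the next. The genotype effect on Siglecf differed between weeks 24 and 3 by 1.18 on the log2 scale in edgeR's test of the difference, with the losses of that call given above.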

How the results depend on the processing

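Of the counts and ratios under alternatives, 703 stayed within 1.5 times (counts) or kept direction and side of the threshold (ratios), 17 moved and 2 newly passed. Most alternatives, here and for the single members below, left out only 1 library. Many counts set 0 members called beside 0, so these totals say little about how well the calls hold. Of the values of single members, 3280 kept their side of the threshold with their direction if called, or within 1 SE if not; 19 lost a call, 7 gained one, 1 reversed and 36 uncalled values moved by more. Leaving Cd22 out of the counts, chosen after seeing the data, gave 3 members at week 24 and 3 within NLGF. At week 24, 4 members were called by edgeR with both sexes, 1 in females alone, 0 in males alone and 0 with the homeostatic microglia term. That term and the genotype cannot be told apart, and Cd33 with it was -0.12 and not called, the 1 reversed value. At week 3 voom called 1 member and edgeR 0. For WT week 24 over week 3, DESeq2 called 2 and edgeR 1. For the genotype effect at week 24 minus week 3, 0 members were called without the deep libraries, 0 with a term for them and 0 with the replicate block, against 1. Leaving out 1 library gave 3 to 4 members at week 24, 1 to 2 for WT week 24 over week 3, and 0 to 1 for the effect at week 24 minus week 8 and minus week 3. The difference in log2 ratio over such fits was 0.32 to 0.51 for Siglecf to Siglech and -0.34 to -0.22 for Cd33 to Siglech at week 24. It was -0.26 to 0.0204 for Siglecf to Siglech at week 8, and for Trem2 to Cd33 -0.0488 to 0.11 at week 3 (0.48 without all 7 deep libraries) and -0.0229 to 0.11 at week 8. The replicate block changed no other member count, with 4 members called at week 24. Same-numbered libraries correlated over 0.1 in 6 of 10 pairs at week 24, 3 of 10 at week 8 and 2 of 10 at week 3, so not every pair did and the block was kept as an alternative; 7, 2 and 1 of 10 correlated best with their own number, at week 24 a hint of pairing from the data that the labels do not state. Cd22, with 1 to 14 counts in WT at week 24, is limited by depth. Where the cause of a change is not named, the cause was not tested.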
